A study of Rattus norvegicus with 16 samples.

Results

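The pro-apoptotic genes of the Bcl2 family were followed in the rat epididymis after its supply of testicular fluid was cut off. The set comprised 9 genes, Bcl2l11, Bok, Bax, Bak1, Bad, Bid, Bmf, Bbc3 and Bnip3l, and its probe sets were all those to which the platform annotation gave 1 of these symbols and no other. On the arrays 8 of the 9 genes had probe sets of their own (of 14217 genes with such a probe set), 13 of the 31042 probe sets in all. The probe set annotated to Bax was also annotated to a second gene, so no value is given for Bax. Of the 13 probe sets, 8 were tested, since at least 4 of the 16 arrays read 5 or more for them (log2), as for 13410 probe sets in all. The 8 came from 6 genes. Levels under 5 were treated as not told apart from background.

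Tissue came from adult male Sprague-Dawley rats. In each animal the efferent ducts, which carry fluid and sperm out of the testis, were tied on 1 side, and the other side had a sham operation. The most proximal piece of the initial segment, the part of the epididymis nearest the testis, was taken after 6, 12 or 18 h, and its RNA was hybridised to Affymetrix rat arrays. The 4 groups were ligation for 6 h, 12 h and 18 h and sham, with 4 arrays in each. The sham group was a single group, so the 3 comparisons with it share the same 4 sham arrays. The labels call the replicates biological, but they do not tie a replicate number to an animal, so a p-value here reflects no more than the scatter among the arrays used. The series title names apoptosis, and the comparisons asked whether genes that promote it differed in level after ligation.

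Proteins of this family decide whether the outer membrane of the mitochondrion is breached, the step that releases cytochrome c and starts the caspase cascade. The BH3-only proteins, among them Bim (encoded by Bcl2l11), Bmf, Puma (Bbc3), Bad and Bid, sense damage or loss of survival signals and bind the protective members such as Bcl2 and Mcl1 or activate the effectors. Bax, Bak and Bok are the pore-forming effectors, and Bnip3l, also called Nix, is a relative better known for marking mitochondria for removal by autophagy.

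The main contrast within the family was between Bcl2l11 and Bok. Bcl2l11 was higher after ligation and Bok was lower, and for each of these probe sets all 4 ligated arrays lay beyond all 4 sham arrays at every time. At 12 and 18 h, 3 of the 8 tested probe sets were called at an adjusted p under 0.05 (limma), namely 1 of Bcl2l11 and both of Bok. At 6 h none of the 8 was called, although 3 of them had an unadjusted p under 0.05. Such a p was found at 6 h for 764 of the 13410 tested probe sets. Over all tested probe sets, 7.86% were called at 12 h, 10.2% at 18 h and 0.283% at 6 h. Bmf was not among them, and it was called at 12 and 18 h when the arrays' division along replicate numbers was modelled or arrays were weighted.

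Values of the tested probe sets fell into sets of arrays that the groups do not explain, and these bear on every result below. Replicates 3 and 4 differed from replicates 1 and 2 at 36.9% of the tested probe sets with the group in the model (limma, adjusted p under 0.05). The spiked control dap stood at 6.93 to 7.93 on replicates 3 and 4 of 6 h and sham, and at 2.22 on the other 12 arrays. Replicates 3 and 4 of 12 and 18 h had the highest 3′ minus 5′ difference of the Gapdh control probe sets, 0.191 to 0.293, against -0.098 to 0.149 on the other arrays. Within replicates 3 and 4, the later times and sham therefore cannot be told apart from these 2 array sets, while replicates 1 and 2 of all groups shared 1 set. Mean levels of 6 fibroblast markers were 8.96 to 10.04 on replicates 3 and 4 and 10.71 to 11.59 on replicates 1 and 2. In whole tissue, fewer cells of a type and less RNA per cell cannot be told apart.

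The labelled tissue was checked with 6 epithelial markers, which averaged 11.35 to 11.79 on the ligated arrays and 11.33 to 11.57 on the sham arrays. Among markers of other cells, 5 sperm genes averaged 2.68 to 4.62 after 6 h, 2.68 to 3.47 after 12 h and 2.7 to 2.86 after 18 h, against 4.3 to 5.94 in sham, and both of the tested ones, Prm1 and Odf1, fell at 12 and 18 h. The 3 neutrophil genes averaged 2.51 to 7.45 at 12 h and 2.51 to 2.61 in sham. Replicates 3 and 4 of all groups lay at 2.45 to 2.61, so the higher 12 h values were on replicates 1 and 2. The neutrophil genes were at 2.45 to 2.77 at 6 h and 2.51 to 3.07 at 18 h. Of the endothelial markers Kdr rose at 18 h, and of the epithelial ones Cldn3 rose at 12 and 18 h. No member was called against sham among the tested markers of fibroblasts (6 tested), smooth muscle (5), macrophages (4), basal cells (3) and clear cells, T cells, fat and erythroid cells (1 each). Of all tested probe sets, 0.283%, 7.86% and 10.2% were called at 6, 12 and 18 h. The macrophage marker Cd68 and the basal cell marker Krt14 differed from sham by 1.09 ± 0.37 (limma adjusted p = 0.0834) and 1.04 ± 0.37 (adjusted p = 0.0976) at 18 h. The defining genes Adipoq of fat and Cd3e of T cells lay under 5, as did Plin1, Cd3g and Cd3d of the same lists. Fabp4 of the fat list had group means of 5.09 to 5.69, with arrays from 3.4 to 7.37. Cd2 of the T cell list had group means of 5.75 to 5.86. The part of these cells in the family's values was not tested.

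Of the BH3-only genes, Bcl2l11 rose at 12 and 18 h. It encodes Bim, which binds all of the protective family members and is held down in many cells by ERK signalling. Its responding probe set was 1388742_at. At 6 h the 4 arrays read 7.35, 6.86, 6.85 and 6.72, at 12 h 6.80, 7.0, 7.54 and 6.96, and at 18 h 7.40, 7.13, 8.18 and 7.58, against 4.77, 5.48, 6.22 and 6.26 in sham (log2, replicates 1 to 4). Every ligated array lay above the highest sham array, and among the sham arrays replicates 1 and 2 were lower than replicates 3 and 4. The difference from sham was 1.39 ± 0.31 at 12 h (SE, 2.62-fold, limma adjusted p = 0.0128) and 1.89 ± 0.31 at 18 h (3.7-fold, adjusted p = 0.00126). At 6 h it was 1.26 ± 0.31, with a 95% interval of 0.60 to 1.92, and did not pass the adjustment (limma adjusted p = 0.19).

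Bcl2l11 differed from sham by more among replicates 1 and 2 than among replicates 3 and 4. Within replicates 1 and 2 the differences were 1.98 at 6 h, 1.78 at 12 h and 2.14 at 18 h, and within replicates 3 and 4 they were 0.54, 1.01 and 1.64. All 6 values were above 0. With only the 12 h and sham arrays in the fit, the 12 h call was lost (adjusted p = 0.0733, limma). The calls at 12 and 18 h were made in 8 of 8 fits that each left out 1 array of the groups compared, with adjusted p of at most 0.0398 and 0.00528. The sham array of replicate 1 lay under 5, where levels were not told apart from background, so the size of the folds is uncertain. Without that array the differences were smaller, 1.09 at 12 h and 1.58 at 18 h.

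Between times Bcl2l11 had no call. At 12 h it stood 0.13 above 6 h (limma adjusted p = 0.904), at 18 h 0.50 above 12 h (adjusted p = 0.84) and at 18 h 0.63 above 6 h (adjusted p = 0.255). By group mean, 18 h came highest with 7.57, followed by 12 h with 7.07, 6 h with 6.94 and sham with 5.68, and neighbouring times did not differ beyond their spread. The other probe sets of the gene, 1370787_at and 1387338_s_at, read 2.22, the lowest value in the table, on all 16 arrays. The rise of Bcl2l11 therefore rests on 1 of its 3 probe sets, and the other 2 gave no measurement of it in either direction.

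Promoter sequence is shown for Bcl2l11 and Bmf, the BH3-only genes with the largest differences from sham. The letters come from RefSeq on the rat assembly GRCr8 and run 5′ to 3′ on the gene's strand, with motif matches in capitals. The motifs, chosen with the sequences in view, were GTAAACA for forkhead factors, CCGGAAG for ETS factors, TGANTCA for AP-1, GGGCGG for SP1 and CCAAT for the CCAAT box, each searched on both strands in the 250 bases before the start. The Bcl2l11 stretch is chr3:135819792-135820041 on the plus strand. The Bmf stretch is chr3:125974088-125974314 on the minus strand and leaves out the bases nearest the start, which lie inside the annotated gene. Distances of matches are counted from the end of the 250-base window, not from that gene boundary.
Bcl2l11: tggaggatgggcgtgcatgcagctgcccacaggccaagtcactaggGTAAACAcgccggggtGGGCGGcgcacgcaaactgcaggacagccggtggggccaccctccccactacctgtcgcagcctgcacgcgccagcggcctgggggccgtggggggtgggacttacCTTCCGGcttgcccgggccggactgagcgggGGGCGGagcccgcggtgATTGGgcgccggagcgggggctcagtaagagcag
Bmf: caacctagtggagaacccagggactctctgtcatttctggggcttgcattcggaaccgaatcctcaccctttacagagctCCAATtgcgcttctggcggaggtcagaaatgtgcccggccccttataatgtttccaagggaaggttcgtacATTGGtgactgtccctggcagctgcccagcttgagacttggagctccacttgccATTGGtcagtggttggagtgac

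Bcl2l11 held 1 forkhead match 204 bases before its start, 1 ETS match at 82 bases on the opposite strand, 2 SP1 matches and 1 CCAAT box. Of 33469 rat promoters, 3.21% held the forkhead letters, 7.27% the ETS letters, 6.34% the AP-1 letters, 30.5% the SP1 letters and 34% the CCAAT letters. Bmf held 3 CCAAT boxes, at 170, 99 and 45 bases before its start, and 1 SP1 match outside the printed stretch. Among the other members with a sequence in the table, Bad held 1 forkhead match at 118 bases, Bak1 1 SP1 match and Bid 3 SP1 matches. None of the 5 promoters held the AP-1 letters. A match describes letters only, and binding was not measured.

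**Figure D1:**
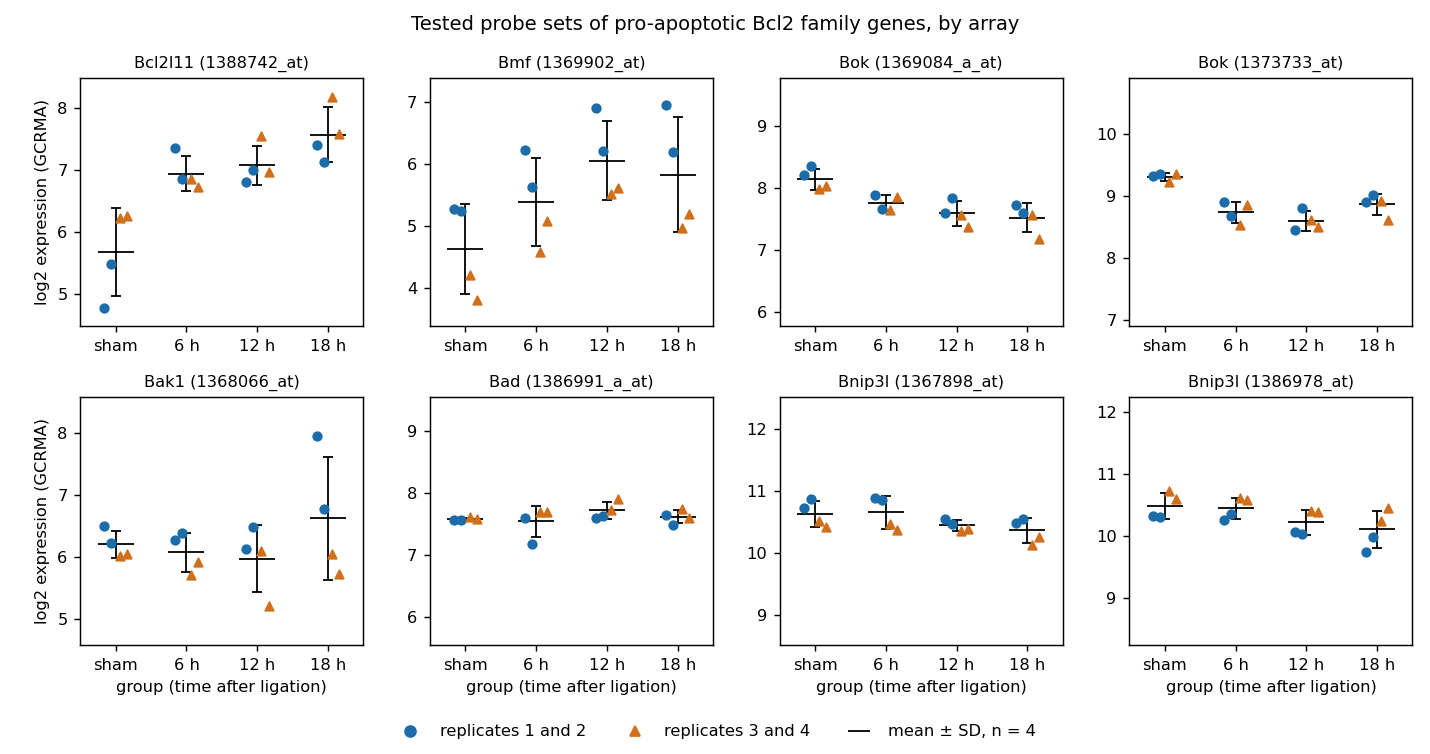
Deposited log2 GCRMA levels of the 8 tested probe sets, 1 point per array, with the mean and SD of 4 arrays in each group; circles are replicates 1 and 2 and triangles replicates 3 and 4. Bcl2l11 lay above sham and both Bok probe sets below sham on every ligated array, while Bmf and Bak1 were mostly lower on triangles than on circles.

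Bmf encodes a BH3-only protein that is held on the cytoskeleton and freed when cells lose attachment. Its 4 arrays read 6.23, 5.64, 4.58 and 5.09 at 6 h, 6.90, 6.21, 5.52 and 5.62 at 12 h and 6.96, 6.19, 4.97 and 5.19 at 18 h, against 5.27, 5.24, 4.21 and 3.81 in sham. The 12 h arrays all lay above the sham arrays, and the 6 and 18 h arrays overlapped them. Within each group replicates 1 and 2 were higher than replicates 3 and 4, which averaged 4.87 against 6.08 for replicates 1 and 2. That division, -1.21 ± 0.15, passed the test itself (limma adjusted p = 5.18e-05).

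Without a term for it, Bmf differed from sham by 0.75 ± 0.50 at 6 h (limma adjusted p = 1), 1.43 ± 0.50 at 12 h (adjusted p = 0.105) and 1.20 ± 0.50 at 18 h (adjusted p = 0.162). The 95% intervals were -0.31 to 1.82, 0.37 to 2.50 and 0.13 to 2.26. With replicates 1 and 2 against 3 and 4 as a block the differences were the same, the SE was 0.21, and Bmf was called at 12 h (adjusted p = 0.000523) and at 18 h (adjusted p = 0.00153) but not at 6 h (adjusted p = 0.179, limma). The block raised the share of all tested probe sets called to 12.9% at 12 h and 16.2% at 18 h, and to 0.41% at 6 h. Within replicates 1 and 2 Bmf differed from sham by 0.69, 1.31 and 1.33 at 6, 12 and 18 h, and within replicates 3 and 4 by 0.82, 1.56 and 1.07. With array weights (limma's arrayWeights) the differences were 2.09 at 12 h (adjusted p = 0.00813) and 1.75 at 18 h (adjusted p = 0.0249). That fit held no term for the division of the replicates, and both weighted differences lay above those within either pair. They can therefore take in part of the division and are not a separate measure of the change. The sham mean of Bmf, 4.63, lay under 5, where levels were not told apart from background, so the size of these differences is uncertain.

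Bad, the BH3-only protein that growth factor kinases inactivate by phosphorylation, varied little. Its arrays read 7.60, 7.18, 7.70 and 7.69 at 6 h, 7.60, 7.63, 7.73 and 7.91 at 12 h and 7.64, 7.48, 7.74 and 7.60 at 18 h, against 7.57, 7.57, 7.61 and 7.58 in sham. The groups overlapped, and the 6 h array of replicate 2 was the lowest of the 16. The 95% intervals of its difference from sham were -0.29 to 0.21 at 6 h, -0.11 to 0.38 at 12 h and -0.22 to 0.28 at 18 h, around estimates of -0.04, 0.13 and 0.03. These intervals leave room for changes of that size and leave out the differences fitted for Bcl2l11.

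Bid and Bbc3 did not reach the minimum level and were not tested. Bid, which death receptors engage once caspase 8 has cut the protein, read 2.22 to 2.31 over the 16 arrays on 1369683_at and 3.81 to 4.33 on 1377759_at. Bbc3, which encodes Puma and is a target of p53, lay between 4.52 and 4.76 on 14 arrays. The other 2 arrays were both replicate 3, with 6.28 at 12 h and 5.83 at 18 h. The remaining arrays of those groups stood at 4.58 to 4.70 at 12 h and 4.67 to 4.76 at 18 h, against 4.52 to 4.72 in sham.

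**Figure D2:**
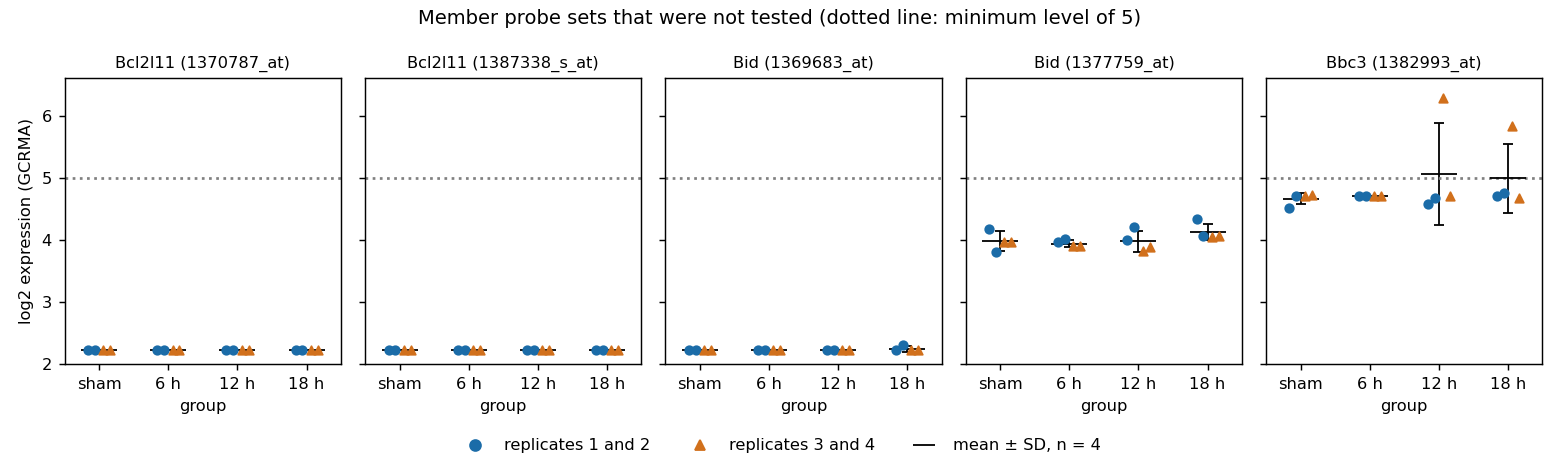
Log2 levels of the 5 member probe sets that were not tested, 1 point per array with group mean and SD (4 arrays per group); the dotted line marks the minimum level of 5. Only Bbc3 crossed it, on the replicate 3 arrays of 12 h and 18 h.

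Among the effectors, Bok fell. Bok is related in structure to Bax and Bak, is found largely at the endoplasmic reticulum, and is known to be removed by degradation of its protein. On 1373733_at the arrays read 8.90, 8.68, 8.53 and 8.86 at 6 h, 8.45, 8.81, 8.62 and 8.51 at 12 h and 8.90, 9.02, 8.93 and 8.62 at 18 h, against 9.33, 9.35, 9.23 and 9.35 in sham. All 12 ligated arrays lay below the lowest sham array, and the sham arrays lay close together. The differences were -0.72 ± 0.11 at 12 h (limma adjusted p = 0.00125) and -0.45 ± 0.11 at 18 h (adjusted p = 0.0227), and sham was 1.64-fold and 1.36-fold as high. At 6 h the difference was -0.57 ± 0.11 (95% interval -0.82 to -0.33, limma adjusted p = 0.058), and it was called with the block for replicates 1 and 2 against 3 and 4 (adjusted p = 0.0332, limma).

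On the second Bok probe set, 1369084_a_at, the arrays read 7.89, 7.65, 7.64 and 7.85 at 6 h, 7.60, 7.83, 7.56 and 7.36 at 12 h and 7.72, 7.60, 7.56 and 7.18 at 18 h, against 8.21, 8.35, 7.98 and 8.03 in sham. Again every ligated array lay below every sham array. The differences were -0.38 ± 0.14 at 6 h (limma adjusted p = 0.571), -0.55 ± 0.14 at 12 h (adjusted p = 0.0225) and -0.63 ± 0.14 at 18 h (adjusted p = 0.00895). The probe sets thus gave the same direction at all 3 times and both passed the test at 12 and 18 h.

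Between 12 and 18 h neither Bok probe set had a call. On 1373733_at the 18 h mean was 0.27 above the 12 h mean (95% interval 0.03 to 0.52, limma adjusted p = 0.7), and on 1369084_a_at it was -0.07 from it (-0.36 to 0.22). No probe set among the 13410 was called between 18 and 12 h (0%), with 877 at an unadjusted p under 0.05. The difference between the probe sets in that step was not tested.

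Both Bok probe sets were below sham in both pairs of replicates at every time, and the widest gap between the pairs was that of 1369084_a_at at 6 h. On 1373733_at the values were -0.55, -0.71 and -0.38 within replicates 1 and 2 at 6, 12 and 18 h, and -0.60, -0.73 and -0.51 within replicates 3 and 4. On 1369084_a_at they were -0.51, -0.56 and -0.62 within replicates 1 and 2, and -0.26, -0.55 and -0.63 within replicates 3 and 4. Leaving out single arrays kept the calls of 1373733_at at 12 h and of 1369084_a_at at 18 h in 8 of 8 fits. The 18 h call of 1373733_at was lost without sham replicate 2 (adjusted p = 0.0545), sham replicate 4 (0.0628) or 18 h replicate 4 (0.0551), and with a block for the 3 array sets (0.0685, limma). The 12 h call of 1369084_a_at was lost without sham replicate 2 (adjusted p = 0.0717), 12 h replicate 1 (0.0534) or 12 h replicate 4 (0.0666, limma). With only the groups compared in the fit, the calls lost were 18 h on 1373733_at (adjusted p = 0.0551) and 12 h on 1369084_a_at (adjusted p = 0.0729, limma).

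Bak1 encodes Bak, the effector that sits on the mitochondrion in healthy cells. Its arrays read 6.27, 6.38, 5.70 and 5.91 at 6 h, 6.12, 6.48, 6.10 and 5.2 at 12 h and 7.95, 6.77, 6.05 and 5.72 at 18 h, against 6.50, 6.22, 6.02 and 6.05 in sham. The groups overlapped, and the 18 h array of replicate 1 was the highest of the 16. The differences from sham were -0.13 ± 0.39 at 6 h, -0.22 ± 0.39 at 12 h and 0.42 ± 0.39 at 18 h, with a 95% interval at 18 h of -0.41 to 1.26 (limma adjusted p = 0.597). Without that 1 array the 18 h difference was -0.02. Bak1 was also lower on replicates 3 and 4 than on replicates 1 and 2, by a difference of -0.74 ± 0.20 (limma adjusted p = 0.0105).

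Bnip3l was measured by 2 probe sets at high levels. On 1367898_at the arrays read 10.89, 10.85, 10.46 and 10.37 at 6 h, 10.55, 10.46, 10.35 and 10.38 at 12 h and 10.48, 10.55, 10.13 and 10.26 at 18 h, against 10.73, 10.87, 10.52 and 10.41 in sham. On 1386978_at they read 10.26, 10.36, 10.61 and 10.58 at 6 h, 10.07, 10.03, 10.41 and 10.38 at 12 h and 9.75, 9.98, 10.24 and 10.45 at 18 h, against 10.33, 10.30, 10.73 and 10.60 in sham. The ligated arrays overlapped sham at every time on both, and at 12 and 18 h both means lay below sham.

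The 18 h differences of Bnip3l were -0.28 ± 0.14 on 1367898_at (95% interval -0.58 to 0.03, limma adjusted p = 0.287) and -0.39 ± 0.16 on 1386978_at (-0.73 to -0.05, adjusted p = 0.159). At 12 h they were -0.20 (adjusted p = 0.531) and -0.27 (adjusted p = 0.404), and at 6 h 0.01 and -0.04 (adjusted p = 1 for both, limma). Here too the replicate pairs stood apart, and in opposite directions for the 2 probe sets: replicates 3 and 4 minus replicates 1 and 2 was -0.31 ± 0.06 on 1367898_at (adjusted p = 0.000863) and 0.36 ± 0.06 on 1386978_at (adjusted p = 0.000309, limma). With that division as a block, Bnip3l was called lower at 18 h on 1367898_at (adjusted p = 0.0306) and on 1386978_at (adjusted p = 0.00486), and at 12 h on 1386978_at alone (adjusted p = 0.0414, limma). That 12 h call was not made with the array set as the block (adjusted p = 0.0648, limma). The average of both probe sets stood at -0.33 at 18 h and was called without the block (adjusted p = 0.0108, limma). With averaging, 11.9% of the 8345 genes were called at 18 h. Since the division ran in opposite directions on the 2 probe sets, their average takes out much of it, as the block does. The call of the average is therefore not a separate measure of the change.

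**Figure D3:**
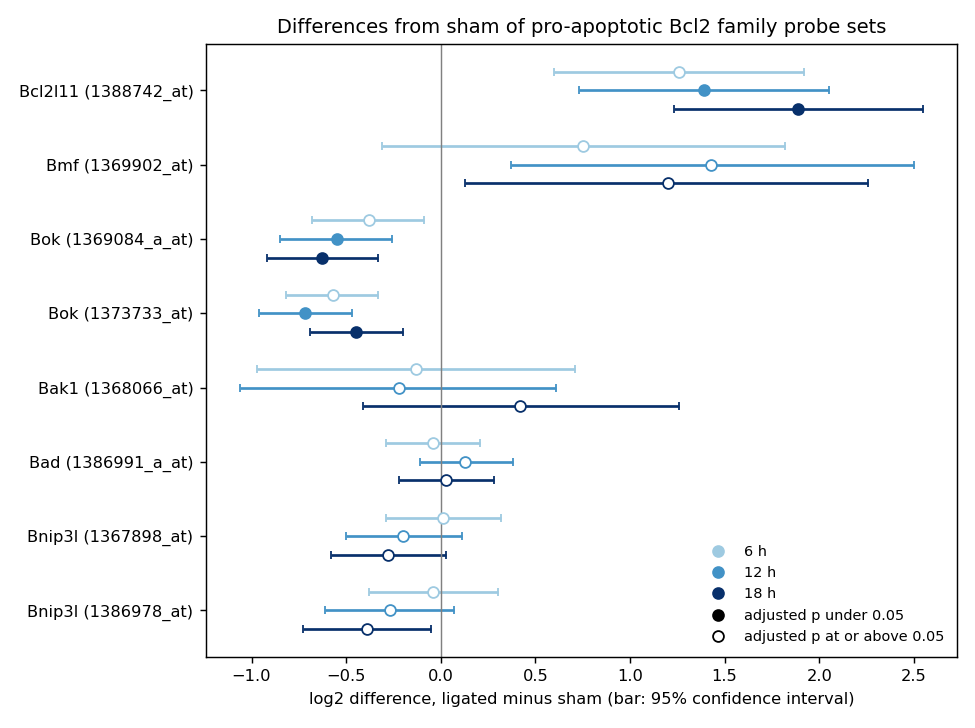
Log2 differences from sham (ligated minus sham) of the 8 tested probe sets with 95% confidence intervals at 6, 12 and 18 h (light to dark); filled points passed an adjusted p under 0.05. Bcl2l11 lies right of 0 and both Bok probe sets left of it with intervals that leave out 0 at every time, and the intervals of Bad all include 0.

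Counted over the family, 1, 5 and 6 of the 8 tested probe sets were called at 6, 12 and 18 h with the block for replicates 1 and 2 against 3 and 4, against 0, 3 and 3 without it. The shares of all tested probe sets called were 0.41%, 12.9% and 16.2% with the block and 0.283%, 7.86% and 10.2% without it. Ligated and sham arrays did not overlap for 3 of the 8 at 6 h, 4 at 12 h and 3 at 18 h, while over all tested probe sets the shares were 4.41% at 6 h, 11.8% at 12 h and 14.2% at 18 h. The family did not move 1 way: the median difference of its 8 tested probe sets was -0.04, -0.21 and -0.12 at 6, 12 and 18 h, beside 0.02, 0.02 and 0.01 over all tested probe sets. Between times no member was called, where 4.28% of all tested probe sets were called for 12 h against 6 h and 7.88% for 18 h against 6 h. With the block, 15.1% of all tested probe sets were called for 18 h against 6 h, and the 2 Bnip3l probe sets were among them, at -0.29 (adjusted p = 0.027) and -0.35 (adjusted p = 0.0111, limma).

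**Figure D4:**
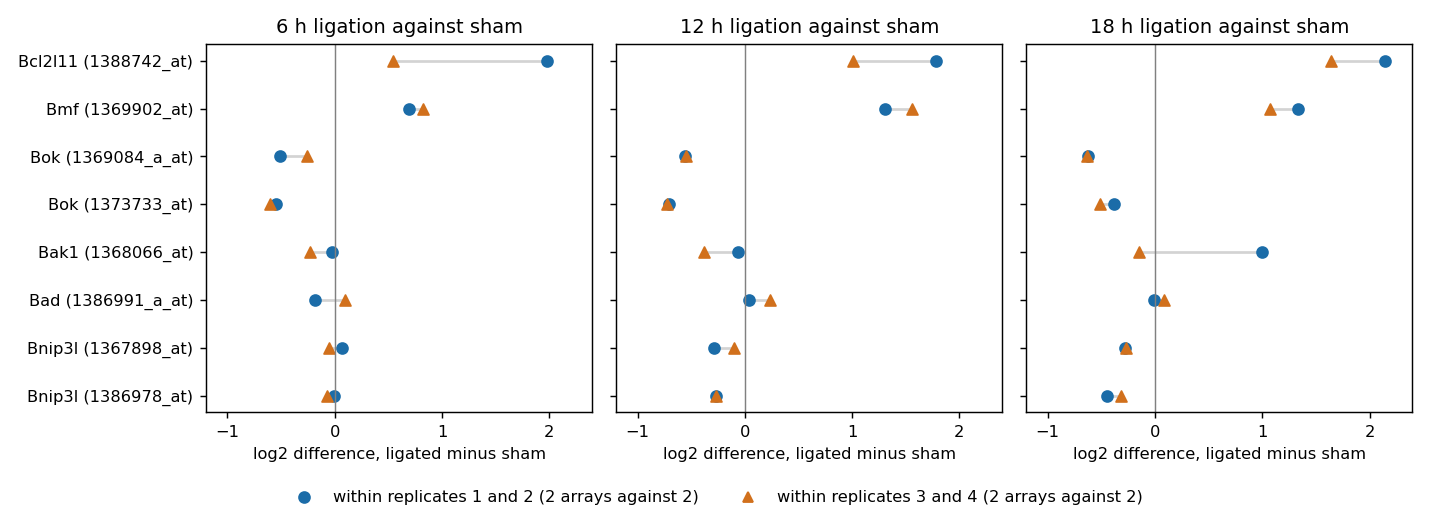
Log2 differences from sham of the 8 tested probe sets within replicates 1 and 2 (circles) and within replicates 3 and 4 (triangles), each 2 arrays against 2, at 6, 12 and 18 h. Both pairs gave the same sign at all 3 times for Bcl2l11, Bmf, both Bok probe sets and Bnip3l on 1386978_at. Bcl2l11 at 6 h was 1.98 in 1 pair and 0.54 in the other.

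Genes around the family were counted by list, where a gene stands for its probe set with the highest mean. Of 8 other pro-apoptotic relatives 3 were tested and none was called, where 0.283%, 7.86% and 10.2% of all tested probe sets were called at 6, 12 and 18 h. The relative with the smallest p, Bnip3, a hypoxia-induced partner of Bnip3l in mitophagy, differed from sham by 0.00 at 6 h, 0.37 ± 0.19 at 12 h (limma adjusted p = 0.292) and 0.29 ± 0.19 at 18 h (adjusted p = 0.409). Hrk and Bik lay near the lowest value of the table in all groups, at means of 2.22 to 2.28.

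Of the 6 survival genes of the family, 3 were tested and 1 was called, at 18 h, where 10.2% of all tested probe sets were called. Mcl1, a short-lived protein that holds Bim and Bak, was higher by 0.69 ± 0.17 at 18 h (limma adjusted p = 0.0207), with means of 10.51, 10.71 and 10.99 at 6, 12 and 18 h and 10.30 in sham. The Mcl1 call was lost without sham replicate 3, 18 h replicate 1 or 18 h replicate 2 (adjusted p up to 0.0675) and with only the 2 groups in the fit (adjusted p = 0.101, limma). It was also lost with the probe sets of each symbol averaged (0.72, adjusted p = 0.0559, limma). Bcl2 had means of 3.11 to 3.23 and was not tested. Bcl2l1, the gene of Bcl-xL, averaged 3.83, 4.20 and 4.62 at 6, 12 and 18 h and 4.04 in sham, and replicates 3 and 4 minus replicates 1 and 2 was -1.52 (limma adjusted p = 0.000331). All its group means lay under 5, and it was not called against sham. Its differences had opposite signs in the replicate pairs, with 0.67 at 12 h and 1.28 at 18 h within replicates 1 and 2, and -0.35 and -0.11 within replicates 3 and 4. Of the blocks tried, that for the 3 array sets alone gave a call (adjusted p = 0.0246 at 12 h and 0.00235 at 18 h, limma). Bcl2l2, which encodes the survival protein Bcl-w, was not called, and its differences were 0.05 at 6 h, -0.25 at 12 h and -0.35 ± 0.15 at 18 h (limma adjusted p = 0.17), with -0.40 and -0.29 in the replicate pairs at 18 h. The median of the 3 tested survival genes was 0.05, 0.16 and 0.58 at 6, 12 and 18 h, of which the 12 and 18 h values are those of Bcl2l1. The block for the array sets called 2 of the 3 at 12 h and 3 at 18 h, where it called 8.81% and 10.1% of all tested probe sets. The 18 h count takes in Bcl2l2, whose difference was below 0 without a block, so it does not describe a rise of all 3.

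The machinery downstream of the mitochondrion held no call among 11 tested of 15 genes, with medians of -0.01, 0.04 and 0.07. Without a block, 0.283%, 7.86% and 10.2% of all tested probe sets were called at 6, 12 and 18 h. With so few genes, a list without a call does not stand apart from these shares. Blocks gave calls there at 18 h, 2 with the pair block (16.2% of all tested probe sets) and 1 with the array set block (10.1%). Apaf1, the core of the caspase-activating complex, had the smallest p, with 0.52 ± 0.19 at 18 h (limma adjusted p = 0.109). The partners of Bnip3l in mitophagy, 7 tested of 9, held none with or without these blocks. Their smallest p was that of Sqstm1, an autophagy adaptor, at 0.24 ± 0.09 at 18 h (limma adjusted p = 0.111).

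In the death receptor route that leads to Bid, 6 of 8 genes were tested. Casp8, the protease that cuts Bid, was lower, with differences of -0.61 ± 0.17 at 12 h (limma adjusted p = 0.0419) and -0.66 ± 0.17 at 18 h (adjusted p = 0.0232), and it differed by -0.58 ± 0.17 at 6 h (adjusted p = 0.355). Ripk1, a kinase of the same receptor complexes, was higher by 0.72 ± 0.21 at 18 h (limma adjusted p = 0.0402). The Casp8 calls were made in 3 of 8 fits with 1 array left out at each time, and were lost without sham replicate 2, 3 or 4, 12 h replicate 1 or 4, and 18 h replicate 1 or 2. The Ripk1 call was lost on leaving out any array of the comparison but 18 h replicate 4. With only the 2 groups in the fit the calls of Casp8 (adjusted p = 0.0911 at 12 h and 0.0613 at 18 h) and Ripk1 (adjusted p = 0.108, limma) were lost too. With the probe sets of each symbol averaged, the Ripk1 call was lost (0.88, adjusted p = 0.0912), while Casp8 was also called at 6 h (-0.56, adjusted p = 0.039, limma).

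Among 13 tested of 20 regulators of BH3-only genes and proteins, 2 were called at 12 h and 3 at 18 h, all of them higher, where 7.86% and 10.2% of all tested probe sets were called. The 12 h count was 0 with only the 2 groups in the fit, 1 with the array set block and 3 with the pair block, and the 18 h count was 3, 2 and 4 under the same settings. Over all tested probe sets these settings called 3.56%, 8.81% and 12.9% at 12 h and 6.17%, 10.1% and 16.2% at 18 h. Jun, an AP-1 factor that can drive Bcl2l11, was higher by 0.89 ± 0.25 at 12 h (limma adjusted p = 0.0452) and 1.68 ± 0.25 at 18 h (adjusted p = 0.000665), with a difference of 0.48 ± 0.25 at 6 h (adjusted p = 1). Ddit3, the stress factor Chop, was higher by 2.00 ± 0.53 at 18 h (limma adjusted p = 0.0285). Pim3, a kinase of a family that inactivates Bad, was higher by 1.00 ± 0.25 at 12 h (adjusted p = 0.0227) and 0.86 ± 0.25 at 18 h (adjusted p = 0.0404, limma).

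Of these regulators, Jun at 18 h was called in 8 of 8 fits with 1 array left out, and its difference from sham was 1.68 within replicates 1 and 2 and 1.69 within replicates 3 and 4. At 12 h the values of Jun were 0.32 and 1.47, and its call was lost without sham replicate 1, 3 or 4 or 12 h replicate 1, 3 or 4. The Ddit3 call was lost without sham replicate 2, 3 or 4 or 18 h replicate 2 or 3. The Pim3 call was lost at 12 h without sham replicate 3 or 4 or 12 h replicate 1 or 2, and at 18 h without any of 7 arrays, that is every array but sham replicate 2. With only the 2 groups in the fit the 12 h calls of Jun (adjusted p = 0.138) and Pim3 (adjusted p = 0.102, limma) were lost. With the array set as a block the 12 h call of Jun (adjusted p = 0.206) and the 18 h call of Ddit3 (adjusted p = 0.0916, limma) were lost. Averaging the probe sets of each symbol also lost the 12 h call of Jun (0.73, adjusted p = 0.0962, limma). The median of all 13 tested regulators was 0.08, 0.09 and 0.04 at 6, 12 and 18 h.

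**Figure D5:**
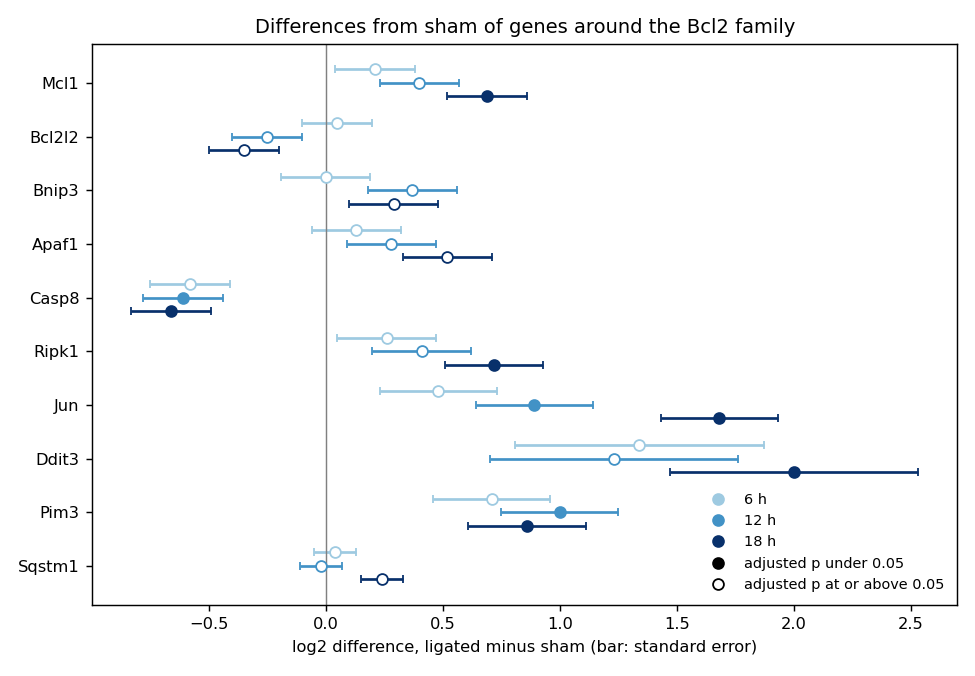
Log2 differences from sham (ligated minus sham) with standard errors of 10 genes around the family at 6, 12 and 18 h (light to dark); filled points passed an adjusted p under 0.05. Casp8 lies left of 0 at all 3 times, and Ddit3 at 2.00 and Jun at 1.68 lie furthest right, both at 18 h.

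The genes whose levels followed the called probe sets most closely over the 16 arrays are given as a description, by Pearson's r among 10831 tested probe sets of 1 gene symbol. The 16 arrays share the 4 groups and the array sets. For Bok on 1373733_at they were Dusp5 (r = 0.937), a phosphatase of ERK that ERK induces, Rab20 (0.871) and Sh3tc1 (0.867). Dusp5 averaged 8.47, 7.56 and 8.60 at 6, 12 and 18 h and 10.97 in sham, so it had its lowest mean at 12 h, as had this Bok probe set. For Bok on 1369084_a_at they were Rnf166 (r = 0.926), Plpp6 (0.897) and Chic2 (0.888). For Bcl2l11 they were Sh3bgrl3 (r = 0.885), Dsc2 (0.870) and Zmym5 (0.869). Dsc2, a desmosomal cadherin, averaged 8.51, 8.63 and 8.75 at 6, 12 and 18 h and 7.42 in sham.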

How the data were processed

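RNA of 16 tissue samples was hybridised to 16 arrays, 4 in each group. Values are the deposited log2 values, 1 per probe set and array, made with GCRMA, which corrects background by probe sequence and normalises by quantiles, per the submitters' processing notes. No source used here gives the GCRMA version. Values lay between 2.22 and 15.1. Scanner output was not used here, and the number of arrays limits the precision.

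Of 31099 probe sets, 57 controls were left out. The platform annotation gave 20826 probe sets 1 symbol, 436 several and 9780 none. Probe sets at or above 5 in at least 4 arrays were tested with limma 3.58.1 (lmFit and eBayes, R 4.3.3), 4 group means in 1 fit of all 16 arrays, adjusted by Benjamini-Hochberg over 13410 probe sets, with a call at an adjusted p under 0.05. Groups came from the sample titles. Array correlations were 0.882 to 0.986, and 0 pairs were identical. The fit was tested on simulated data.

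The member genes, lists and tests were chosen with earlier results of these data known. Named genes were all member probe sets, from each list up to 4 called members or else the one with the smallest p, Bcl2, Bcl2l1 and Mcl1 always, and the 3 genes most like each called member probe set. Hrk, Bik, Bcl2l2 and the cell markers named were added after their values were seen. Promoters came from the RefSeq table, which held 5 of the 9 members. Alternatives were other priors, minimum levels, scalings, array weights (statmod 1.5.0), blocks, replicate pairs, averaged probe sets, a stricter adjusted p, and each array left out. Alternatives for genes outside the family were added after the data were seen.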

Additional observations from a re-analysis of the deposited data

Results flagged for a closer look

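Of 40 sets of 4 arrays of 1 group and member probe set with a range of at least 0.02, 6 held an array whose gap to the nearest other array, divided by the range of the group, was above Dixon's 95% critical value for 4 values. Chance alone flags some groups at this level, and the 40 sets share arrays. The Bbc3 probe set read 6.28 on 12 h replicate 3, with 4.58 to 4.70 on the other 12 h arrays, and 5.83 on 18 h replicate 3, with 4.67 to 4.76 on the other 18 h arrays. In sham, Bbc3 read 4.52 on replicate 1 and 4.71 to 4.72 on the others. Bid read 4.33 on 18 h replicate 1 with 1377759_at, with 4.05 to 4.07 on the others, and 2.31 on 18 h replicate 2 with 1369683_at, with 2.22 on the others. Both Bid probe sets lay under the minimum level on these arrays. Bok on 1373733_at read 9.23 on sham replicate 3 and 9.33 to 9.35 on the other sham arrays.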

How the results depend on the processing

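Counts of the 8 tested member probe sets called moved with several settings, and the share of all tested probe sets called moved with them. At 6 h, with 0 in the fit reported, 1 was called under a trended and robust prior, a minimum level of 7, arrays centred on medians, quantile normalization again, array weights, the replicate pair block and the array set block, where 0.276% to 0.776% of all were called. At 12 h, with 3, the count was 5 with array weights (18.1% of all), 5 with the pair block (12.9%), 1 with only the groups compared (3.56%), 1 within replicates 1 and 2 (4.6%), 1 within replicates 3 and 4 (4.27%), and 1 at an adjusted p under 0.01 (3.28%). At 18 h, with 3, it was 5 with array weights (15.7%), 6 with the pair block (16.2%), 6 with the replicate block (16.1%), 5 with the array set block (10.1%) and 1 within replicates 1 and 2 (6.17%).

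Between times, with 0 each, the replicate block gave 1 for 12 h against 6 h (Bmf, 8.7% of all) and 2 for 18 h against 6 h (14.4%), where the pair block gave 2 (15.1%), the set block 2 (8.75%) and averaged probe sets 1 (9.77%). Deviations of arrays with the same replicate number correlated at 0.007 to 0.556. Arrays with the other number of the same replicate pair correlated at -0.006 to 0.63, and arrays of opposite pairs at -0.601 to 0.1. The same number reached no higher than the other number of its pair, so the numbers were not taken as pairs. The replicate block also gave 4 calls among the BH3-only regulators at 12 h and 4 at 18 h, 1 and 2 in the mitochondrial machinery, and no Bnip3l call at 12 h (adjusted p = 0.0587 on 1386978_at, limma). That block called 12.7% of all tested probe sets at 12 h and 16.1% at 18 h. Of 708 member values under alternatives, 656 stayed on the same side of the threshold, 15 lost a call, 37 gained one and 0 called values changed sign. Among the 656 were 23 uncalled values that changed sign. Of the fits that left out an array, the 708 hold only those with the lowest and the highest adjusted p of each comparison. The 15 therefore do not hold every call lost on leaving out an array, and further losses of Bok are given above. Without single arrays, the counts were 2 to 3 at 12 h, 2 to 3 at 18 h and 0 in the other comparisons. Values under 5 limit Bmf, Bid, Bbc3 and 1 sham array of Bcl2l11. Other background corrections were not run, since processed values were used.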
